A study of Mus musculus with 4 samples.

Results

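The insulin-like growth factor (IGF) family was examined in engineered neural tissue of the mouse through 10 genes. These are the ligands Igf1 and Igf2, the receptors Igf1r and Igf2r, and the binding proteins Igfbp2, Igfbp3, Igfbp4, Igfbp5, Igfbp6 and Igfbp7. All 10 were found by symbol among the 23874 genes of the deposited count table, and 8 had enough counts to be tested. The tissue was a gel culture of neural stem cells. Neurospheres, the balls that such cells form in suspension, were set in Matrigel, a gel made from basement membrane. Both groups were kept in DMEM/F12 with N2, B27 and 20 ng/ml basic fibroblast growth factor. The EF group was stimulated electrically at 150 mV/mm in sessions of 30 min, 1 on each of 3 days, and was cultured for 7 more days. The noEF group was not stimulated. Both groups are labelled day 7, but the labels give no culture time for noEF. Whether the cultures of the groups had the same age is therefore not known. Each group had 2 libraries, although the labels state 3 replicates per group. The EF pair, called EF 1 and EF 2 here, carries the library names E1 and E3. The sample labels call both groups engineered tissue, whereas the design text of the series gives cell suspensions for the control. The labels are followed here. If the control was a suspension, stimulation and gel culture cannot be told apart in any difference between the groups. No genotype or strain is named in the labels. Whether the replicates were separate cultures is not stated either, so the spread behind each p-value may be technical.

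IGF1 and IGF2 are secreted peptides that drive growth and survival of neural progenitors through the IGF1 receptor, a tyrosine kinase at the cell surface. The IGF2 receptor has no kinase. It removes IGF2 from the surface and carries mannose 6-phosphate-tagged enzymes to lysosomes. Binding proteins hold the ligands outside the cell and either store them or present them to the receptor, and proteases that cut the binding proteins set the ligands free. N2 and B27 supplements contain insulin, which also acts on the IGF1 receptor at high dose. Proteins added with medium or gel are not seen in RNA counts.

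Total counts per library ranged from 33748880 to 34554537. Of 14263 genes tested by edgeR, 546 were called higher and 712 lower in EF. Higher genes were 43.4% of these calls, and 69.3% when libraries were scaled by their totals alone. Neural markers were present in every library. The summed level of 5 neural stem cell markers (Nes, Sox2, Fabp7, Hes5 and Vim) was 4889 and 5191 CPM (counts scaled to library size) in EF and 6656 and 6261 CPM in noEF. The microglial markers Aif1, Cx3cr1 and Csf1r, the endothelial marker Cdh5, the fibroblast marker Lum and the choroid plexus marker Ttr had 0 counts in all libraries. Microglia, endothelium, meninges and choroid plexus are known sources of IGF family RNA in the brain. Other markers of these cells were present at low levels. The summed microglial markers (5 genes) stayed between 0.224 and 1.16 CPM, and the meningeal fibroblast markers (6 genes) were at 23.2 and 32.2 CPM in EF and 27.8 and 30.4 CPM in noEF. The 5 endothelial and mural markers summed to 10.4 and 6.02 CPM in EF against 4.70 and 4.31 CPM in noEF. Acta2, the smooth muscle actin gene, was called higher (edgeR adjusted p = 0.0309). Of the 4 tested, 2 had a log2 fold change below 0, the lowest at -6.58, and 0 were called lower. The 5 choroid plexus markers summed to 9.36 and 8.85 CPM in EF against 6.11 and 6.63 CPM in noEF. Of the 3 tested, 1 had a log2 fold change below 0. The 5 neuron markers summed to 565 and 541 CPM in EF against 454 and 531 CPM in noEF, although 3 of the 5 had a log2 fold change below 0. The 5 oligodendrocyte lineage markers summed to 373 and 413 CPM in EF and 390 and 392 CPM in noEF, and these groups overlapped. The endothelial and mural, choroid plexus and neuron sums were higher in EF, as were Igfbp3 and Igfbp4. The part of these cells in that difference was not tested.

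The binding proteins carried most of the signal and went in different directions. Igfbp4 was 1.77-fold and Igfbp3 1.30-fold higher in EF, and Igfbp5 was 1.55-fold lower. Igfbp2, by far the most abundant, did not pass the test, and neither did Igfbp6, Igfbp7 or either receptor. Igf1 was at the edge of detection and Igf2 was listed at 0. Among the 8 members tested, 2 were thus called higher and 1 lower. Over all genes tested, 3.83% were called higher, 4.99% lower and 8.82% in either direction. The family was chosen by gene symbol with the earlier fold changes and p-values of this same contrast known. The counts and the p-values beside them therefore describe the fit and give no independent support. The median log2 fold change was 0.08 over the 8 tested members and 0.01 over all genes.

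The promoters of the 3 called binding proteins are shown as a description, and their part in the differences between the groups was not tested. Each run is the 250 bases upstream of the RefSeq start on the gene's own strand, from GRCm38.p6. Igfbp4 lies at chr11:99040994-99041243 (plus strand), Igfbp3 at chr11:7213924-7214173 (minus) and Igfbp5 at chr1:72874866-72875115 (minus). Capitals mark matches to any of 7 short motifs searched on both strands.
Igfbp4: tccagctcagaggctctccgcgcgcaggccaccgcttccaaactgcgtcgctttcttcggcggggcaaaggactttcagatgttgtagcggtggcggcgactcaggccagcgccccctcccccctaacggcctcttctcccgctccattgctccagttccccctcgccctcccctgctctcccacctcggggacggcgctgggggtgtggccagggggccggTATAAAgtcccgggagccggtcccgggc
Igfbp3: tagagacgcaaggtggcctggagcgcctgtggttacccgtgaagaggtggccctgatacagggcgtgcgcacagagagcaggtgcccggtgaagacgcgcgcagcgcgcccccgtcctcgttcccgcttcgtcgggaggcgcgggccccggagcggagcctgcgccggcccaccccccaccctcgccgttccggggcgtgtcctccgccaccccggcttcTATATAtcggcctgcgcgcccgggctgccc
Igfbp5: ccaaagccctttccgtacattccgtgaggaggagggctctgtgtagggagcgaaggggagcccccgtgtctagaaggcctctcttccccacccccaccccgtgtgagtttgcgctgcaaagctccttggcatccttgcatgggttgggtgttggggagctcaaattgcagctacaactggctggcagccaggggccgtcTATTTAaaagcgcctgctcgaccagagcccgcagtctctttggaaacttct
The motifs were the TATA box TATAAA, the CCAAT box CCAAT, the GC box GGGCGG, the forkhead site TGTTTAC, the AP-1 site TGACTCA, and the TATA-like runs TATATA and TATTTA. The last pair was added after these sequences had been read. Igfbp4 holds TATAAA from 28 to 23 bases before its start. Igfbp3 holds TATATA from 30 to 25 bases before, a run that reads the same on both strands. Igfbp5 holds TATTTA from 51 to 46 bases before its RefSeq start. In the GENCODE M21 annotation Igfbp5 starts at 72874884, inside the window, so from that start the run lies closer. For Igfbp4 and Igfbp3 both annotations give the same start. These letters occur in 12.4%, 5.2% and 12.7% of 32851 promoter windows of the same length. The windows of Igfbp4 and Igfbp3 are rich in G and C (69.2% and 73.2%) with 22 and 32 CpG pairs. The Igfbp5 window has 58.8% and 10 pairs, and the median promoter 52.4% and 6. GGGCGG, found in 32.7% of promoters, occurs upstream of Igfbp7, Igf1r, Igf2r and 2 of the 4 starts listed for Igf2, and not in the 3 windows shown. For Igfbp2 it occurs in the listed window from 72824230 and not in the one from 72825137. All 10 members matched an entry in the promoter table, and a match is a description of letters only.

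**Figure D1:**
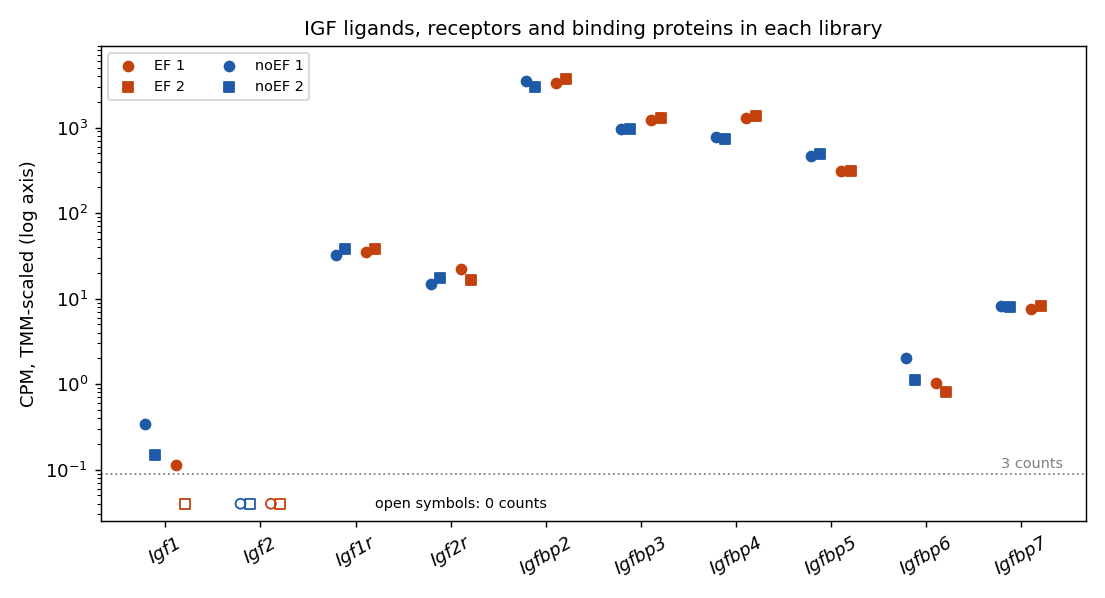
TMM-scaled CPM (log axis) of the 10 genes in each of the 4 libraries, with circles for replicate 1, squares for replicate 2 and open symbols for 0 counts. The dotted line is the mean level of 3 counts over the 4 libraries. Igfbp2 to Igfbp5 lie between 310 and 3671 CPM, the receptors at or below 37.8 CPM, and Igf1 and Igf2 near or under the line.

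Few or no counts were listed for the ligands. Igf1, which in brain is made mainly by some neurons and microglia, had 4 and 0 counts in the EF libraries and 11 and 5 in the noEF libraries, or 0.112, 0, 0.338 and 0.149 CPM. The noEF counts were the higher ones, but Igf1 fell under the filter on low counts and was not tested. A count of 0 allows a level of up to 0.084 to 0.0922 CPM, depending on the library. Igf2, the imprinted fetal ligand (ENSMUSG00000048583, chromosome 7, 142650766 to 142666816, minus strand), had 0 counts in all 4 libraries. In GENCODE M21, 3596 of its 5723 exon bases are shared with the gene model Gm49394 on the same strand, and the sources used here do not say how reads from such a stretch were assigned. Gm49394 had 1.15 and 1.35 CPM in EF and 1.54 and 1.01 CPM in noEF, with overlapping groups. A 0 for Igf2 therefore does not show that the locus gave no RNA, while the RNA listed for both genes together did not exceed 1.54 CPM in any library.

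Both receptors were expressed at a low level that did not differ beyond the spread of the libraries. Igf1r (ENSMUSG00000005533, chromosome 7, 67952827 to 68233668) had 35.0 and 37.8 CPM in EF and 32.8 and 37.6 CPM in noEF. The libraries of the groups were interleaved, and the log2 fold change was 0.05 (SE 0.13, edgeR adjusted p = 0.869). Igf2r (ENSMUSG00000023830, chromosome 17, 12682406 to 12769664) had 22.4 and 16.3 CPM in EF and 14.7 and 17.2 CPM in noEF. EF 1 stood above the other libraries, EF 2 lay between the noEF pair, and the log2 fold change was 0.28 (SE 0.18, edgeR adjusted p = 0.379). Per kilobase of exon the 2 receptors were alike, at 2.13 and 1.90 CPM per kb averaged over all libraries. Insr, the insulin receptor gene, was close to them at 3.08 to 3.49 CPM per kb and its log2 fold change was 0.00 (SE 0.12, edgeR adjusted p = 0.993).

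Igfbp4 showed the largest called difference of the family. Its protein binds both ligands and is best known for withholding them until a protease cuts it. Igfbp4 (ENSMUSG00000017493, chromosome 11, 99041244 to 99054392, plus strand) had 1283 and 1382 CPM in EF and 769 and 734 CPM in noEF. Both EF libraries lay far above both noEF libraries, with means of 1332 ± 70.4 and 751 ± 25.2 CPM (SD, n = 2 each). The log2 fold change was 0.83 (SE 0.08, edgeR adjusted p = 2.87e-05) and stayed between 0.77 and 0.91 in 12 alternative settings, all of which called it. Its left neighbour among protein-coding genes, 17055 bases away, is Top2a, a topoisomerase of dividing cells that was itself higher in EF (log2 fold change 1.03, SE 0.10, edgeR adjusted p = 5.01e-05).

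Igfbp3 rose less. It encodes the main carrier of IGF in blood, and in tissue it can also act on cells without a ligand. Igfbp3 (ENSMUSG00000020427, chromosome 11, 7206086 to 7213923, minus strand) had 1209 and 1295 CPM in EF and 970 and 963 CPM in noEF. The groups did not overlap, and the noEF pair differed by much less than the EF pair, with SDs of 5.50 and 60.9 CPM (n = 2 each). The log2 fold change was 0.37 (SE 0.08, edgeR adjusted p = 0.00876). It was called in 11 of 12 alternatives. Without EF 2 the log2 fold change was 0.32 and the call was lost (edgeR adjusted p = 0.0882). Igfbp1, a liver binding protein gene that lies 3540 bases from Igfbp3, had 5 counts in EF 2 and 0 in the other libraries.

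Igfbp5 went the other way. Its protein sticks to extracellular matrix and is known from growing and differentiating muscle, bone and brain. Igfbp5 (ENSMUSG00000026185, chromosome 1, 72857932 to 72874884, minus strand) had 310 and 310 CPM in EF and 462 and 496 CPM in noEF. The EF libraries were nearly equal and both lay under the noEF pair, and the log2 fold change was -0.63 (SE 0.08, edgeR adjusted p = 2.67e-04). All 12 alternatives called it lower, with values between -0.69 and -0.54. Of 5 astrocyte markers (Gfap, Aqp4, Aldoc, Slc1a3 and Gja1), 4 were called lower in EF, where 4.99% of all genes were, with a summed level of 4531 and 4306 CPM in EF against 5092 and 5239 CPM in noEF. The summed neural stem cell markers were also lower in EF, with 4 of 5 genes below 0 and 1 called lower. Igfbp5 moved with both marker sets, and their part in its fall was not tested. In bulk RNA, fewer cells of a type and less RNA per cell cannot be told apart.

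Igfbp2 dominated the family in both groups. It is a binding protein of the developing brain and of neural progenitors and astrocytes. Igfbp2 (ENSMUSG00000039323, chromosome 1, 72824503 to 72852474, plus strand) had 3322 and 3671 CPM in EF and 3463 and 3018 CPM in noEF. The groups overlapped, and the log2 fold change was 0.11 (SE 0.09, edgeR adjusted p = 0.495). Once each library's trend on gene length and GC was removed, it was called higher (log2 fold change 0.28, SE 0.07, edgeR adjusted p = 0.0144). Igfbp2 and Igfbp5 face each other on chromosome 1, with 5458 bases between their 3′ ends and no protein-coding gene between them. Igfbp5 was lower in EF and Igfbp2 was not.

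The last pair of binding proteins was scarce. Igfbp6, which prefers IGF2, had 1.04 and 0.802 CPM in EF and 2.03 and 1.13 CPM in noEF, from 28 to 66 counts per library. The noEF libraries were the higher ones, but the log2 fold change of -0.78 had an SE of 0.59 and did not pass (edgeR adjusted p = 0.466). Igfbp7, a distant relative that binds IGFs weakly and is best known from blood vessels, had 7.62 and 8.14 CPM in EF and 8.27 and 7.91 CPM in noEF. These libraries overlapped, and the log2 fold change was -0.04 (SE 0.21, edgeR adjusted p = 0.941). Exons of Igfbp7 share 85 bases with Polr2b on the opposite strand. In all, 4 of the 8 tested members (Igfbp3, Igfbp4, Igfbp5 and Igfbp6) had groups that did not overlap, against 54.4% of all genes tested.

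**Figure D2:**
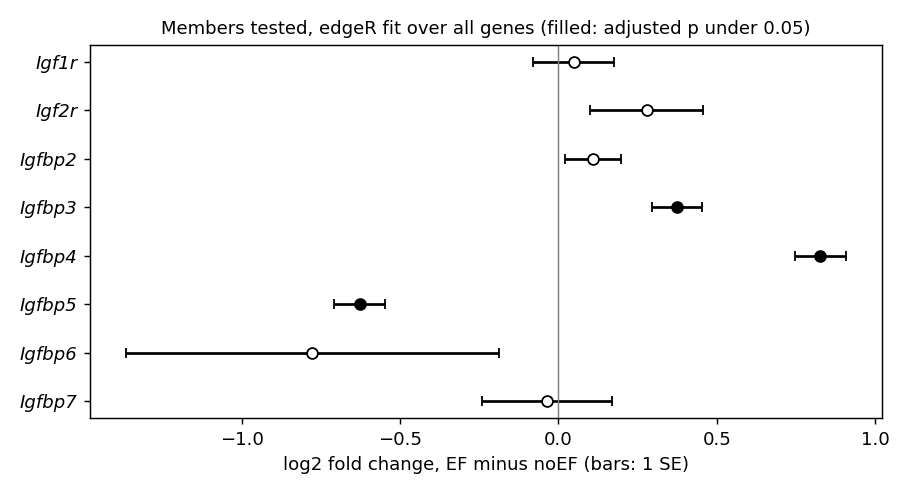
Log2 fold change (EF minus noEF) of the 8 members tested, with bars of 1 SE and filled points for an edgeR adjusted p under 0.05. Igfbp4 (0.83) and Igfbp3 (0.37) are right of 0, Igfbp5 (-0.63) is left of it, and Igfbp6 has the widest bar (SE 0.59).

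Levels were compared between genes per kilobase of exon, a scale that understates genes with long alternative exons. On that scale, over all libraries, Igfbp2 averaged 1824 CPM per kb, Igfbp3 354, Igfbp4 236, Igfbp5 65.7, Igfbp7 6.60 and Igfbp6 1.12. Among 13438 tested genes with an exon length, Igfbp2 ranked 18, Igfbp3 98, Igfbp4 174 and Igfbp5 778. Igfbp7, Igf1r, Igf2r and Igfbp6 ranked 5577, 8949, 9252 and 10312. The order Igfbp2, Igfbp3, Igfbp4, Igfbp5, Igfbp7, Igfbp6 held in each library. Igf1r and Igf2r did not keep their order, since the ratio of Igf1r to Igf2r per kb was 0.867 in EF 1 and 1.21 to 1.29 in the other libraries.

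The make-up of the binding protein RNA differed between the groups as a description of the same values. Igfbp2 made up 71.0% and 71.7% of the summed binding protein level per kb in EF and 76.7% and 74.3% in noEF. Igfbp4 took 11.5% and 11.3% in EF against 7.12% and 7.56% in noEF. The share of Igfbp3 was 15.2% and 14.9% in EF and 12.7% and 14.0% in noEF. Igfbp5 held 2.04% and 1.86% in EF and 3.15% and 3.75% in noEF. As a result, Igfbp4 was 5.63 and 6.07 times Igfbp5 per kb in the EF libraries and 2.26 and 2.01 times in the noEF libraries. Igfbp3 was 7.48 and 8.03 times Igfbp5 in EF and 4.03 and 3.73 times in noEF. The 6 binding protein genes together took 0.634% and 0.685% of all counts in EF and 0.547% and 0.509% in noEF.

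**Figure D3:**
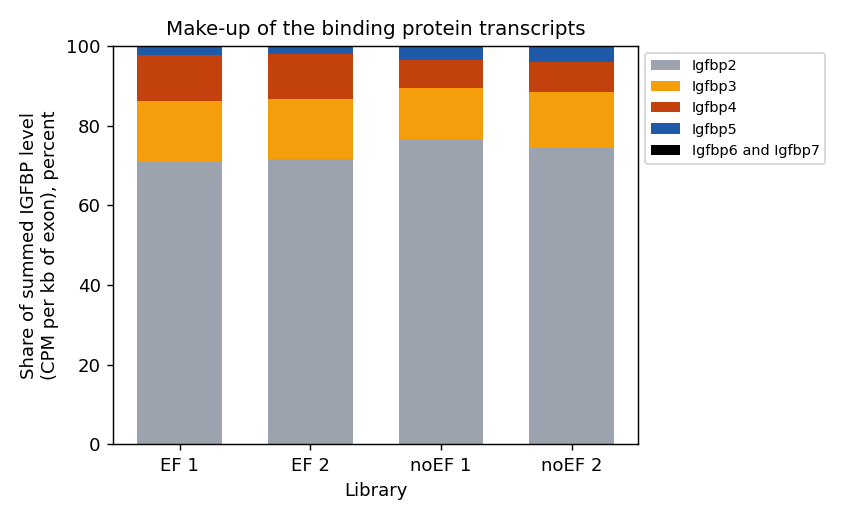
Share of each binding protein gene in the summed IGFBP level (CPM per kb of exon, percent) in each library. The Igfbp4 segment is wider in EF (11.5% and 11.3%) than in noEF (7.12% and 7.56%), the Igfbp5 segment is narrower, and Igfbp6 and Igfbp7 together are too thin to see.

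Genes around the family were followed through 6 lists with 71 distinct genes, of which 68 were in the table and 60 were tested. Of these, 2 were called higher in EF (Adam12 and Adamts1) and 1 lower (Fbxo32), which is 5% of those tested beside 8.82% of all genes. The median log2 fold change over the 60 genes was 0.01.

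Proteases of the binding proteins and their inhibitors held both higher calls. In that list 2 of 6 genes tested were higher, where 3.83% of all genes were, and 0 were lower, with a list median of 0.33. Adam12 encodes a metalloprotease known to cut IGFBP-3 and IGFBP-5. It had 188 and 192 CPM in EF and 108 and 112 CPM in noEF, and the groups were well apart. The log2 fold change was 0.79 (SE 0.08, edgeR adjusted p = 6.01e-05). Adamts1, a secreted metalloprotease that also cuts matrix proteoglycans, had 164 and 159 CPM in EF and 116 and 122 CPM in noEF. Its log2 fold change was 0.44 (SE 0.09, edgeR adjusted p = 0.00521). Both were called in all 12 alternatives. Htra1, a secreted serine protease that cuts IGFBP-5, was at -0.23 and the PAPP-A inhibitor gene Stc1 at 0.50, with edgeR adjusted p-values of 0.103 and 0.204 that missed the threshold. Pappa, which encodes the protease of IGFBP-4, had 2 counts in EF 2 and 0 in the other libraries, and Pappa2 had 12 counts in noEF 2 and 0 in the others.

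Genes of the signalling chain below the receptors lay close to 0. The 34 reported here run from the docking proteins Irs1 and Irs2 through PI3-kinase and mTOR to the FOXO factors, with a median of 0.03 and a range of -0.43 to 0.38. By edgeR 0 of the 34 passed, where 8.82% of all genes did. An unadjusted p under 0.05 was found for 3, against 23.8% of all genes. DESeq2 and limma-voom also called 0. The 0 did not hold in every setting, since edgeR called 2 with library totals and 2 with no filter on low counts. It called 1 with the length and GC trend removed. Nor did the 0 hold without noEF 2 or without EF 2, fits that each leave 1 library in a group. The smallest p belonged to Rps6kb1, the S6 kinase that acts below mTOR, with 39.0 and 38.4 CPM in EF and 25.7 and 33.7 CPM in noEF. The groups did not overlap but the noEF libraries were far apart, and the log2 fold change of 0.38 (SE 0.14) gave an edgeR adjusted p of 0.106. Rps6kb1 shares 155 exon bases with Rnft1 on the opposite strand.

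Of 11 FOXO target genes, which are repressed when insulin or IGF signals are strong, 1 was lower, where 4.99% of all genes were, and 10 did not pass, with a median of -0.02. Fbxo32, a ubiquitin ligase gene known from muscle wasting, had 22.9 and 26.0 CPM in EF and 32.3 and 34.9 CPM in noEF. The groups did not overlap, and the log2 fold change was -0.46 (SE 0.13, edgeR adjusted p = 0.0456). This call was lost when any 1 of the 4 libraries was left out, with adjusted p between 0.0526 and 0.325, and it held in 6 of 12 alternatives. Irs2 and Insr, 2 other FOXO targets, were both at 0.00.

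No gene passed in the remaining lists. In the list of the Igf2 locus and Igf2 mRNA binding proteins, 3 genes were tested, 0 had an unadjusted p under 0.05 by edgeR, and the smallest p belonged to Igf2bp3. It had 20.8 and 21.4 CPM in EF and 10.6 and 19.4 CPM in noEF. The noEF 1 library stood far below the other 3, and the log2 fold change of 0.49 had an edgeR adjusted p of 0.325. Without noEF 2 it was 0.98 and called (edgeR adjusted p = 4.66e-04), and exons of Igf2bp3 share 1529 bases with Malsu1 on the opposite strand. On the mannose 6-phosphate route, by which IGF2R delivers lysosomal enzymes, 6 genes were tested and 4 had an unadjusted p under 0.05 by edgeR, against 23.8% of all genes. Of these Gnptg, a subunit of the enzyme that makes the tag, was nearest to a call (-0.31, edgeR adjusted p = 0.0541). Gnptg shares 1113 exon bases with Unkl on the opposite strand. Among other family genes, Ins1, Ins2 and Insrr had 0 counts in all libraries, Igfals had 6 counts in noEF 2 alone, and Igfbpl1 was not called at -0.85 (edgeR adjusted p = 0.192).

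**Figure D4:**
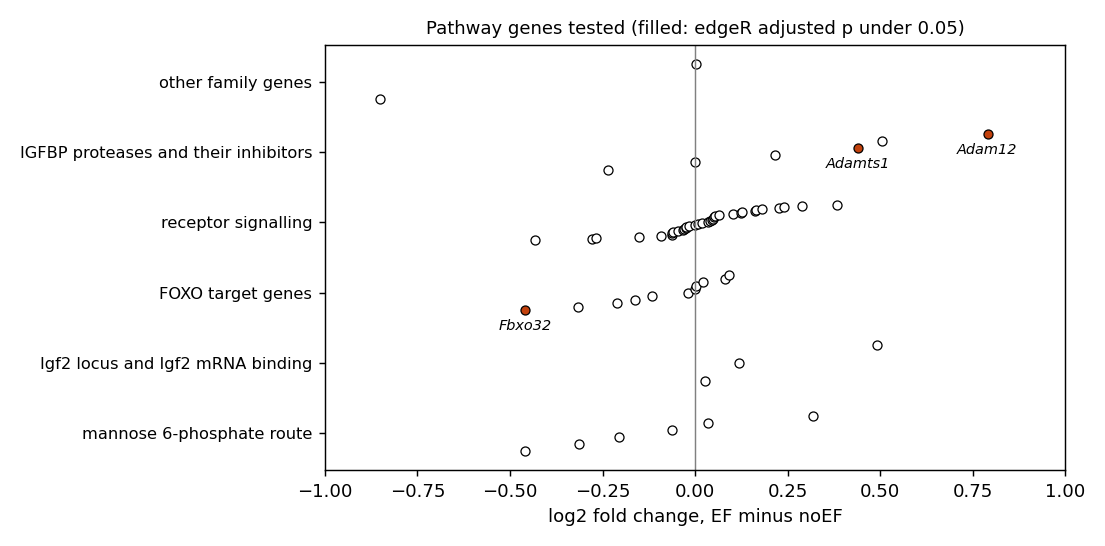
Log2 fold change (EF minus noEF) of the pathway genes tested, 1 point per gene and 1 row per list, with filled and named points for an edgeR adjusted p under 0.05. Adam12 and Adamts1 lie right of 0 and Fbxo32 left of it, while the signalling genes cluster around 0.

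The genes whose levels ran most like those of Igfbp4 and Igfbp5 over the 4 libraries were found by the distance between centred log2 CPM values among 12703 genes. Nearest to Igfbp4 were Pmel, Cxcl10 and Rnf208, at distances of 0.03, 0.05 and 0.07. Nearest to Igfbp5 were the astrocyte gap junction gene Gja1, Atp23 and Nudt7, at 0.02, 0.03 and 0.05. Gja1 had 411 and 405 CPM in EF and 605 and 646 CPM in noEF. With 4 libraries many genes share such a pattern, and the closeness is a description only.

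**Figure D5:**
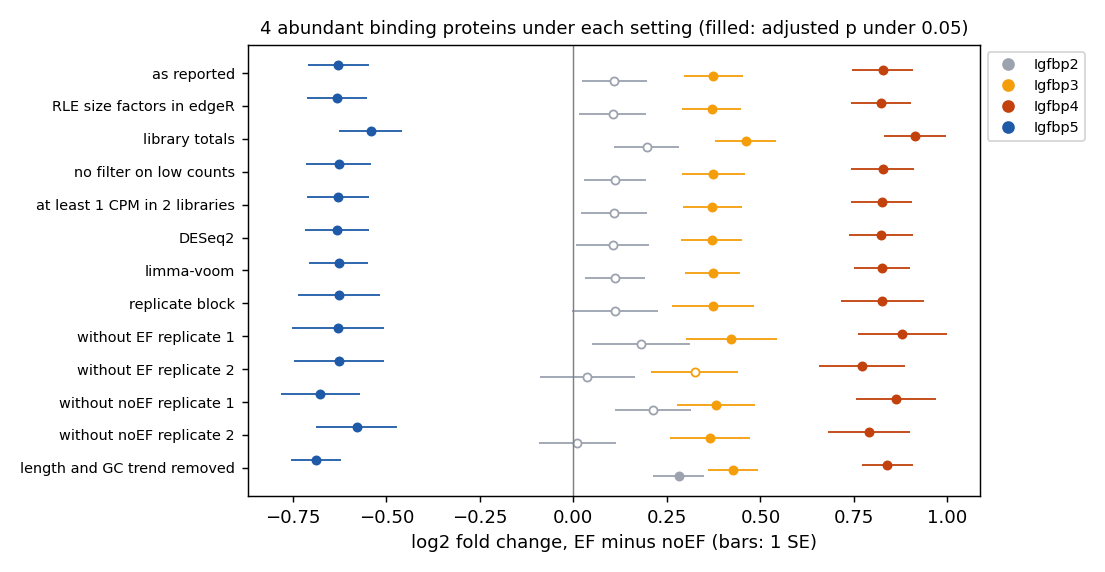
Log2 fold change (EF minus noEF, bars of 1 SE) of Igfbp2, Igfbp3, Igfbp4 and Igfbp5 as reported and in 12 alternative settings, filled where the adjusted p is under 0.05. Igfbp4 stays between 0.77 and 0.91 and Igfbp5 between -0.69 and -0.54, while Igfbp3 loses its call without EF 2 and Igfbp2 gains one with the length and GC trend removed.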

How the data were processed

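RNA was sequenced from 2 EF and 2 noEF libraries of mouse engineered neural tissue, and groups were read from the sample titles. The labels' protocols describe oligo(dT) selection, fragmentation, random priming and PCR, and no step that keeps the strand. Per the submitters' processing notes, HISAT2 2.0.4, StringTie 2.2.1, DESeq2 1.44.0 and build GRCm38 were used. The sources used here do not describe the counting step. The deposited table holds raw counts per gene for 23874 genes.

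From these counts, edgeR 4.0.16 in R 4.3.3 applied filterByExpr with a minimum count of 10 and a total of at least 15, then TMM scaling and the quasi-likelihood F test. P-values were adjusted by Benjamini-Hochberg over 14263 genes, with calls under 0.05. CPM values use TMM-scaled totals, and SE is |log2 fold change|/√F. Exon lengths and positions came from GENCODE M21 (GRCm38). The alternatives used RLE or library totals, other filters, DESeq2 1.42.0, limma-voom (limma 3.58.1), a replicate block, each library left out, and removal of each library's length and GC trend. The procedure was tested on counts simulated from its own model with the spread fitted here, which cannot show whether the replicates are independent. In each library 57 to 76 genes had 1 count and 239 to 294 had 2, so low counts may not be independent fragments, and the floors given cover counting error only. A chi-square test of the 2 libraries in each group, pooled over genes, gave 18.7 per degree of freedom for EF and 19.8 for noEF. The paired libraries thus differed by more than the counting error of independent fragments. A pooled value cannot show whether they were separate cultures or repeat preparations of the same RNA, since a few erratic genes can raise it. The genes, the pathway and marker lists and the tests were chosen with earlier results of these data known. Named pathway genes are those called in each list, or the one with the smallest p where none was called. 1 gene of the receptor signalling list is not reported here and was left out of the list counts.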

Additional observations from a re-analysis of the deposited data

How the results depend on the processing

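Igfbp4 and Igfbp5 kept their direction and call in all 12 alternatives, and 1 member was called lower in each. Members called higher numbered 1 to 2 when 1 library was left out. Leaving out a library leaves 1 sample in an arm, which is then assumed to vary like the other group. Pathway genes called higher were 5 with library totals, 4 with no filter on low counts and 2 to 6 with 1 library left out. Those called lower were 0 with library totals, 2 by DESeq2, 2 with at least 1 CPM in 2 libraries, 3 with no filter, 3 with the length and GC trend removed, and 0 to 2 with 1 library left out. With the replicate block, 2 members were higher and 1 lower, 2 pathway genes were higher and 0 lower, and Fbxo32 lost its call (edgeR adjusted p = 0.0747). The deviations of same-numbered libraries correlated at -0.09, which cannot show whether such libraries share a batch or culture. The replicate numbers are those of the sample titles, and EF 2 carries the library name E3. Over all genes, 546 higher and 712 lower calls became 915 and 1203 with no filter, 217 and 337 without EF 1, and 1138 were higher with library totals. The causes were not tested. A count of 0 allows up to 0.084 to 0.0922 CPM, and Igf1, above that in 3 of 4 libraries, was untested because it missed the filter on low counts.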
